A study of Arabidopsis thaliana with 116 samples.

Results

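The genes described here are the nuclear genes of Arabidopsis thaliana with locus tags between AT2G07000 and AT2G07999, which lie on chromosome 2 beside and within a copy of the mitochondrial genome. The members are all probe sets of the ATH1 array that the platform annotation assigns to 1 such gene. No measured value entered this rule, but earlier results of these data were known when it was chosen. They number 67 of 22746 tested probe sets, and 67 of the 13367 probe sets with 1 nuclear gene. They stand for 66 of 13217 nuclear genes so represented, and of 335 genes with such tags in the RefSeq gene table of assembly TAIR10.1, since AT2G07360 has 2 probe sets. None of these 66 genes carries a name beyond its locus tag in the annotation used, so no function is stated for any of them.

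Affymetrix arrays were hybridised with seed RNA of 116 recombinant inbred lines, to map how expression is inherited. The lines descend from reciprocal crosses of the accessions C24 and Col 0, and their names begin with Q (59 lines) or R (57 lines); which letter belongs to which cross direction is not stated in the labels. Plants of both groups were stratified for 3 days and then kept in long days, with 16 h light periods at 20 °C and nights of 8 h at 16 °C. Seeds were dissected from siliques taken 10 to 11 days after flower opening, and 8 siliques from each of 6 plants were pooled for 1 RNA preparation of 200 mg of seeds per line. No line had a second array, so every p-value below rests on the spread between lines.

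Plant cells hold genomes in the nucleus, the mitochondria and the plastids, and pieces of organelle DNA have moved into nuclear chromosomes during evolution. The Arabidopsis reference accession Col carries a large and nearly intact copy of its mitochondrial genome close to the centromere of chromosome 2, so that many locus tags in this interval repeat the sequence of mitochondrial genes. Recent nuclear copies of this kind usually lack the signals for nuclear transcription, while the originals are transcribed inside the organelle, whose RNA is present in every total RNA extract. A probe that fits both copies reads the sum of their transcripts, and the arrays give no means of telling the sources apart.

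The annotation shows where the copy lies. Of 13 AT2G07 probe sets that the platform assigns to several genes, and which are therefore no members, 11 are shared between a chromosome 2 gene and a mitochondrial gene. Their 10 mitochondrial partners are atp1 and atp9 (ATP synthase subunits), cox3 (a cytochrome c oxidase subunit), cob (apocytochrome b), nad1 (a subunit of respiratory complex I), and the ribosomal protein genes rps4, rps7, rps12, rpl2 and rpl5. In annotated gene order the first of these shared genes is AT2G07671, paired with atp9, and the last is AT2G07734, paired with rps4. The 20 members between them, AT2G07673 to AT2G07732, are called the stretch here. Another 38 members precede it, AT2G07000 to AT2G07777 in map order, and 9 follow it, AT2G07738 to AT2G07760. Shared probe sets thus place 20 of the 67 members inside the mitochondrial copy. They give its least extent and not its edges, so whether members on either side also belong to the copy was not tested.

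Members of the stretch differ from the others in their probe sets and their annotation. The suffix _s_at, which marks probe sets whose probes fit more than 1 transcript, is borne by 15 of 20 stretch members, by 3 of 38 before it and by 2 of 9 after it, against 935 of all 22746 tested probe sets. Pseudogenes make up 1 of 20 stretch members, 19 of 38 before and 5 of 9 after; the other members are annotated as protein coding. The stretch members are therefore annotated as protein coding almost throughout, while the members on its flanks include many annotated pseudogenes. Genes without a probe set of their own were not counted.

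Most members gave dim signals. On the log2 scale of robust multi-array average (RMA) values, 47 of 67 members had a mean under 5, against 37.7% of all tested probe sets. The median over members of the mean signal was 4.04, with 4.57 in the stretch, 3.94 before it and 4.37 after it, against 5.91 over all tested probe sets. Levels of different probe sets depend on their probes and are not compared gene by gene. The median SD over lines was 0.20 in the stretch, 0.123 before it and 0.158 after it, against 0.169 over all tested probe sets.

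A mean of at least 5 log2 was reached by 20 members, and the brightest are given here. AT2G07360 gave 8.48, 8.70 and 8.95 (lowest, median and highest of the 116 lines) with its bright probe set. AT2G07707, in the stretch, gave 6.59, 7.30 and 8.36. AT2G07741, which follows the stretch, gave 6.17, 7.23 and 8.36. The bright set of AT2G07360 thus kept within a narrow band over all lines, while the other pair spread widely. Next came AT2G07719 (mean 6.51), AT2G07170 (6.16) and AT2G07724 (6.07). At the dim end AT2G07080 (mean 3.07), AT2G07732 (3.15), AT2G07693 (3.17) and AT2G07440 (3.21) hardly varied, with SDs between 0.0693 and 0.103.

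The 8 members with the largest SD over lines were AT2G07741 (SD 0.507), AT2G07722 (0.494), AT2G07721 (0.430), AT2G07751 (0.393), AT2G07708 (0.392), AT2G07673 (0.380), AT2G07707 (0.360) and AT2G07773 (0.335). Of these, 6 lie in the stretch, AT2G07741 lies shortly after it and AT2G07773 shortly before it. For AT2G07708 a single Q line at 7.41 stood above the next line at 6.50. No member passed the rule for a 2-mode distribution described below, which 225 of all tested probe sets (0.989%) passed.

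**Figure D1:**
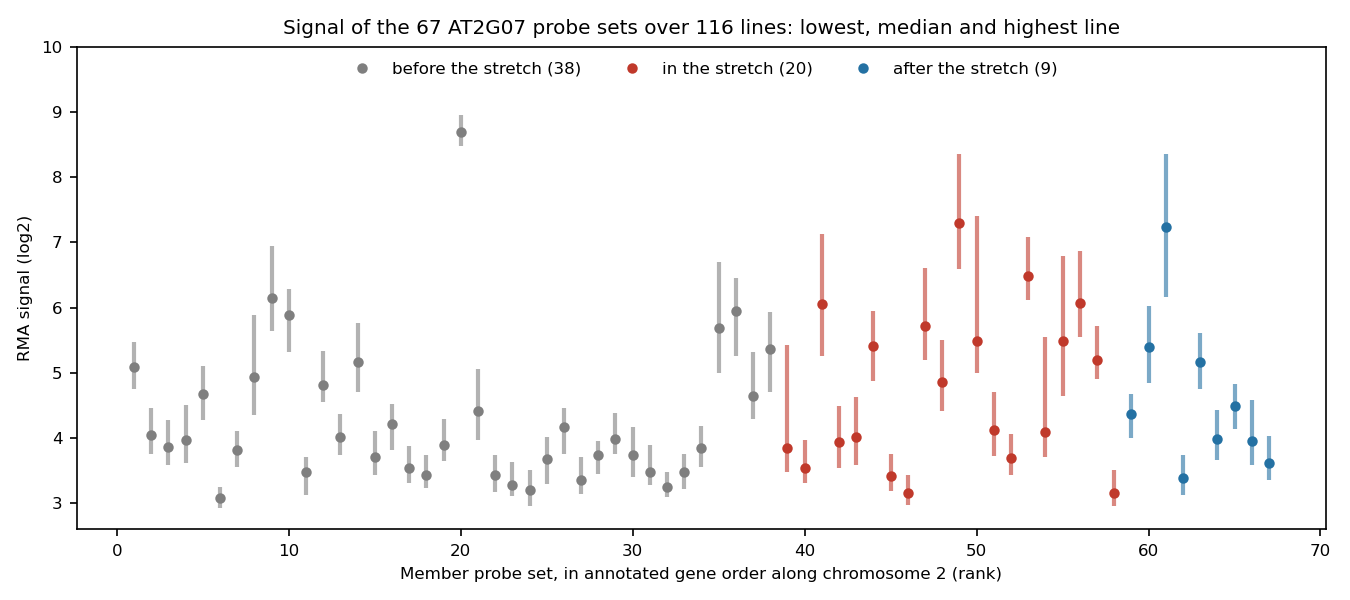
RMA signal (log2, vertical axis) of the 67 member probe sets in annotated gene order along chromosome 2 (rank, horizontal axis); points are medians and bars run between the lowest and the highest of 116 lines, coloured by place before, in or after the stretch. Most of the long bars lie between rank 35 and rank 61, around and in the stretch, and the bright short bar at rank 20 is AT2G07360.

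The measured seed storage and oil body genes had means between 12.10 and 13.81 log2 (6 of 7 listed genes). Of 5 genes listed for silique wall and leaf 3 were measured, LHCB4.1, PORB and RCA, and lay between 7.35 and 11.03. The tissue that gave their signal was not tested. The seed coat genes BAN and DFR (2 of 4 listed) lay between 7.91 and 8.68, and the endosperm genes AGL62 and IKU2 between 3.24 and 4.35. The mean correlation of an array with the others had a median of 0.9861 and was lowest at 0.9729. RNA quality, taken as the signal of control transcripts at the 3' end minus that at the 5' end, averaged 1.09 ± 0.263 (SD) in the 59 Q lines and 1.02 ± 0.290 in the 57 R lines.

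The first question was whether member signal moved with signal of the mitochondrial genome. A mitochondrial score was formed for each line as the mean standardised value of 23 probe sets assigned to 1 mitochondrial gene each, none of them a member or a shared probe set, and was scaled to an SD of 1. Among them the sets of matR, orfX, ccb452 and nad6 and a set of nad5 bear the suffix _s_at. Whether the score also reads transcripts of the chromosome 2 copy was not tested, so it is not known to be independent of the members. The score averaged -0.02 ± 1.12 (SD) in Q lines and 0.02 ± 0.865 in R lines. Each probe set was then regressed on the score with the letter as covariate in limma, with Benjamini-Hochberg adjustment over all 22746 probe sets and a threshold of 0.05. In these bulk extracts more mitochondrial RNA per cell and more cells rich in mitochondria cannot be told apart.

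Among all members 28 of 67 were called with the mitochondrial score and all 28 were higher, where 10.3% of all tested probe sets were called and 5.35% were called higher. Of 20 stretch members 19 were called, and the change had a median of 0.10 log2 per SD of the score. Before the stretch 6 of 38 members were called, and after it 3 of 9. The median change was 0.01 before the stretch and 0.02 after it, against 0.00 over all tested probe sets.

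The members with the smallest p show the size of this relation. AT2G07751, with 5.26, 6.05 and 7.13 log2 as lowest, median and highest over the lines, rose by 0.28 ± 0.0258 log2 per SD of the score (estimate ± SE, limma adjusted p = 7.37e-16). The score took up 50.3% of its variance. This share and all later ones are of the variance left after the letter was fitted. AT2G07707 rose by 0.25 ± 0.0244 (limma adjusted p = 2.38e-14, 46.8% of the variance). AT2G07741 rose by 0.31 ± 0.0370 (limma adjusted p = 1.04e-10, 37.9%). In the plot against the score, signal of each climbed over the whole range, with lines of both letters mixed along it.

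Several further stretch members rose by 0.10 to 0.27 log2 per SD. AT2G07719 rose by 0.13, AT2G07705 by 0.12, AT2G07708 by 0.22, AT2G07678 by 0.10, AT2G07722 by 0.27 and AT2G07695 by 0.15 log2 per SD, with limma adjusted p-values between 3.16e-09 and 1.03e-06. Without the Q line that stood apart for AT2G07708, its change was 0.20 (limma adjusted p = 1.13e-07). The member that did not pass was AT2G07693, the single pseudogene of the stretch, with a signal of 2.97 to 3.43 and a change of 0.02 (95% CI -0.00 to 0.03).

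Members outside the stretch that were called lay mostly at its edges. The last 4 members before the stretch were all called: AT2G07773 (0.17 log2 per SD), AT2G07776 (0.11), AT2G07749 (0.12) and AT2G07777 (0.09). So were the first 3 after it, AT2G07738 (0.03), AT2G07739 (0.12) and AT2G07741 (0.31). The other 2 called members were AT2G07070 (0.05) and AT2G07110 (0.04), both near the start of the gene order. None of the last 6 members after AT2G07741 was called, so most calls formed a run across the stretch and its edges that AT2G07693 alone interrupts, as the plot of changes by gene order shows.

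**Figure D2:**
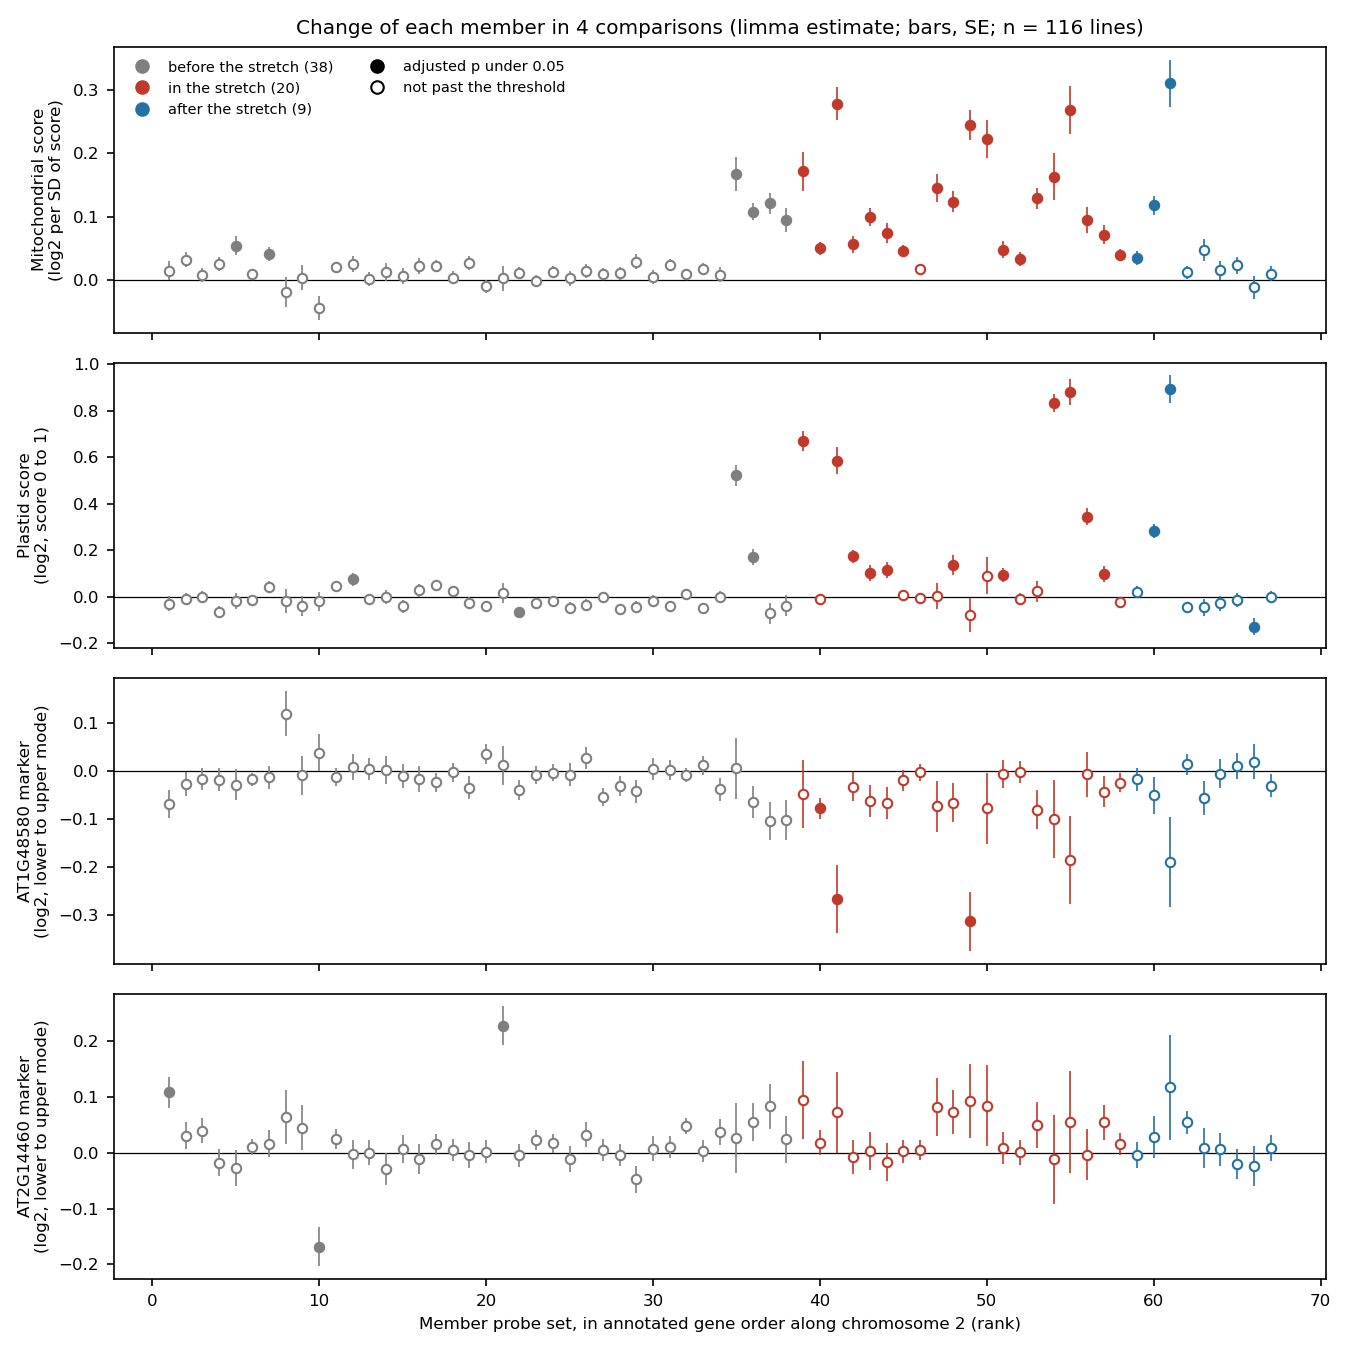
Change of each member (vertical axes, log2; points are limma estimates, bars 1 SE, n = 116 lines) with the mitochondrial score, the plastid score, the AT1G48580 marker and the AT2G14460 marker, against gene order along chromosome 2 (rank); filled points passed an adjusted p of 0.05. Filled points lie mostly in and around the stretch in the first 3 panels, with 28, 18 and 3 members called, and before the stretch in the last, with 3.

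Probe set design ran alongside these calls. Of the 20 members with the suffix _s_at 18 were called with the mitochondrial score, against 10 of the 47 others. Within the stretch 15 of 15 with the suffix and 4 of 5 without it were called. Outside the stretch 3 of 5 with the suffix and 6 of 42 without it were called. By annotation 27 of 42 protein coding members and 1 of 25 pseudogenes were called. By brightness 14 of 20 members with a mean of at least 5 log2 and 14 of 47 dimmer ones were called. Place, suffix, annotation and brightness go together among these members, and their parts in the result were not tested.

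All 11 probe sets paired with a mitochondrial gene rose with the score as well, by a median of 0.19 log2 per SD. The change was 0.36 for the set of cob and AT2G07727, 0.28 for atp9 and AT2G07671, 0.23 for rps12 and AT2G07675 and 0.06 for the smaller of the nad1 sets, that of AT2G07701. For the 124 probe sets of single genes in the neighbouring tag ranges AT2G05000 to AT2G06999 and AT2G08000 to AT2G10999, 18 were called, all higher, with a median change of 0.01. Probe sets of the plastid genome rose too: 36 of 69 were called, all higher. All 69 plastid estimates were positive, with a median change of 0.13. The rise with the score was thus not limited to probe sets of mitochondrial genes or their copies. Set beside each other, 19 of 20 stretch members, 18 of 124 neighbours and 36 of 69 plastid probe sets were called. Differences between the lists were not tested.

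The next question was whether members moved with a split of the lines in plastid transcripts. In the plastid genes ndhF (a subunit of the plastid NADH dehydrogenase-like complex), petN (a subunit of the cytochrome complex of photosynthesis) and rps14 (a plastid ribosomal protein), signal fell into an upper and a lower mode over the lines. All 3 genes were in the upper mode in 37 lines (19 Q and 18 R) and in the lower mode in 72 lines (35 Q and 37 R), and 7 lines were mixed or between the modes. The plastid score, the mean over these 3 genes of the probability of the upper mode, averaged 0.37 ± 0.461 in Q lines and 0.35 ± 0.469 in R lines. That some AT2G07 probe sets move with these genes was known when the comparison was chosen.

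With the plastid score 18 of 67 members were called, where 13.7% of all tested probe sets were called. Of these 16 were higher and 2 lower in lines of the upper mode, against 6.95% and 6.73% of all tested probe sets. In the stretch 11 of 20 members were called, all higher, with a median change of 0.10. Before the stretch 4 of 38 were called and after it 3 of 9, with median changes of -0.02 and -0.01, against -0.01 over all tested probe sets. Of the 124 neighbours 17 were called, 14 higher and 3 lower, with changes from -0.38 to 1.58 log2. The largest change among members was 0.89. Of 69 plastid probe sets, those that form the score among them, 43 were called, all higher. Large rises with the plastid score were thus not limited to members.

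AT2G07721 followed the plastid split most closely. Its signal was 4.28, 4.80 and 5.55 log2 (lowest, median and highest) in the 37 upper-mode lines, against 3.70, 3.98 and 4.38 in the 72 lower-mode lines. In 35 of the 37 upper-mode lines it lay above every lower-mode line, so the groups overlapped only at their edge. The limma change was 0.83 ± 0.0386 log2 from a score of 0 to 1 (adjusted p = 5.99e-39), and the score took up 80.3% of the variance.

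AT2G07722 gave 5.62, 6.15 and 6.79 log2 in upper-mode lines, against 4.65, 5.26 and 5.77 in lower-mode lines. Here 32 of 37 upper-mode lines lay above the lower-mode range. The change was 0.88 ± 0.0563 (limma adjusted p = 2.24e-27, 67.9% of the variance).

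AT2G07741 gave 7.26, 7.81 and 8.36 log2 in upper-mode lines, against 6.17, 6.97 and 7.78 in lower-mode lines, and its change was 0.89 ± 0.0586 (limma adjusted p = 1.56e-26). AT2G07673 gave 3.88, 4.27 and 5.42 in upper-mode lines, against 3.47, 3.71 and 4.27 in lower-mode lines, with a change of 0.67 ± 0.0431 (limma adjusted p = 3.04e-27). For each of these genes 19 of 37 upper-mode lines exceeded the lower-mode range. AT2G07751 gave 5.93, 6.39 and 7.13 in upper-mode lines, against 5.26, 5.79 and 6.47 in lower-mode lines, with a change of 0.59 ± 0.0572 (limma adjusted p = 1.95e-15). AT2G07773 gave 5.62, 6.01 and 6.70 in upper-mode lines, against 4.99, 5.50 and 6.15 in lower-mode lines, with a change of 0.52 ± 0.0469 (limma adjusted p = 1.76e-17). Both of these overlapped more widely, with 17 and 8 upper-mode lines above the lower-mode range.

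Smaller rises were found for AT2G07724 (0.35), AT2G07739 (0.28), AT2G07776 (0.17) and AT2G07676 (0.17), with limma adjusted p-values between 3.92e-13 and 5.9e-05. The 6 weakest rises, of AT2G07705, AT2G07691, AT2G07678, AT2G07713, AT2G07728 and AT2G07200, were between 0.08 and 0.14. The 2 members lower in upper-mode lines were AT2G07740 (-0.13, limma adjusted p = 0.0114) and AT2G07380 (-0.07, limma adjusted p = 0.0228), both outside the stretch. Neither AT2G07707, at -0.08 (95% CI -0.22 to 0.07), nor AT2G07708, at 0.09 (95% CI -0.06 to 0.25), passed the threshold, although both had risen with the mitochondrial score.

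Among the shared probe sets 6 of 11 rose with the plastid score. The set of cob and AT2G07727 rose by 0.88 log2 (limma adjusted p = 2.47e-23), and that of cox3 and AT2G07687 by 0.53 (limma adjusted p = 4.1e-15). The sets of rps12, rps7 and both sets of nad1 rose by 0.11 to 0.27. Of the 23 mitochondrial probe sets 7 rose, led by 2 sets of nad1 with changes of 0.56 and 0.48 and by nad6, another subunit of respiratory complex I, with 0.38. The sets of nad1 disagreed. Further ones rose by 0.29 and 0.15, while those with changes of 0.10, 0.09 and -0.13 did not pass.

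**Figure D3:**
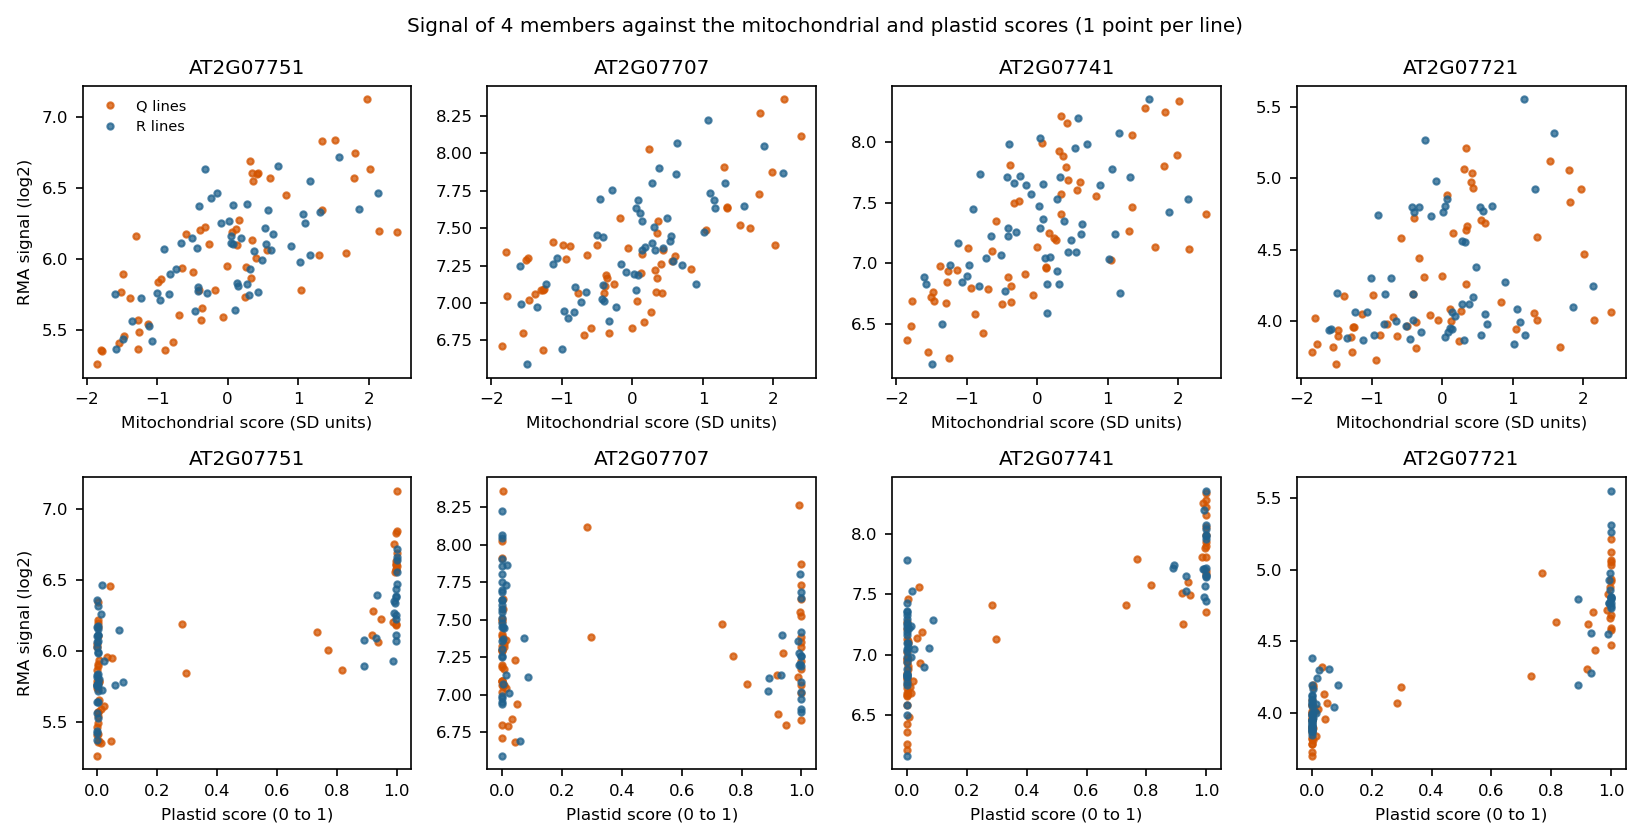
RMA signal (log2, vertical axes) of AT2G07751, AT2G07707, AT2G07741 and AT2G07721 against the mitochondrial score (upper panels, SD units) and the plastid score (lower panels, 0 to 1); each point is 1 line, Q and R in different colours. AT2G07721 forms separate clouds by plastid score, with 35 of 37 upper-mode lines above all lower-mode lines, while AT2G07707 rises with the mitochondrial score and not with the plastid score.

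The organelle scores are not independent of each other. The mitochondrial score averaged 0.47 ± 0.768 in the 37 lines of the plastid upper mode and -0.26 ± 1.01 in the 72 lines of the lower mode (SD). Of the members 15 were higher with both scores, 29 with at least 1 and 38 with neither, and 11 of the 15 lie in the stretch. How many of all tested probe sets were higher with both scores was not counted. These counts therefore describe the members and are no result about them. Because the scores are not independent, both were also put into 1 fit, an alternative chosen after the separate fits had been seen.

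In the joint fit 33 of 67 members rose with the mitochondrial score, where 10.7% of all tested probe sets did, and 17 of the 33 lie in the stretch. With the plastid score 10 members rose and 11 fell, against 10.6% and 11.3% of all tested probe sets. These counts with the plastid score are near the shares over all tested probe sets and are no result about the members as a set. The changes named below describe single members. The 10 that rose had all risen in the separate fit: AT2G07721 by 0.80, AT2G07722 by 0.77, AT2G07741 by 0.75, AT2G07673 by 0.61, AT2G07773 by 0.45, AT2G07751 by 0.43, AT2G07724 by 0.31, AT2G07739 by 0.22, AT2G07676 by 0.15 and AT2G07776 by 0.11. The other 6 rises of the separate fit, those of 0.08 to 0.14, were lost, with adjusted p-values between 0.089 and 0.433.

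In the joint fit a fall with the plastid score means a lower signal at a given mitochondrial score. It need not mean a lower signal in upper-mode lines. Of the 11 members with such a fall, only AT2G07740 and AT2G07380 had been called lower in the separate fit. Among the 11 members, 8 rose with the mitochondrial score in the same fit. AT2G07707 fell by 0.28 ± 0.0495 with the plastid score (limma adjusted p = 6.3e-06) and rose by 0.29 ± 0.0229 with the mitochondrial score (limma adjusted p = 1.17e-19). Its change with the plastid score had not passed the threshold in the separate fit. AT2G07749 fell by 0.18 and rose by 0.15, and AT2G07777 fell by 0.12 and rose by 0.11. AT2G07721 showed the other pattern: its change with the mitochondrial score, 0.16 in the separate fit, was 0.04 in the joint fit (limma adjusted p = 0.097). Within the stretch 6 members rose with the plastid score and 17 with the mitochondrial score in the joint fit, 4 rose with both, and 2 rose with the mitochondrial and fell with the plastid score. Calls with both scores were not counted over all tested probe sets. The counts of members called with both scores therefore have no share beside them.

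A further comparison used AT1G48580, a nuclear gene of chromosome 1 whose probe set had modes at 5.16 and 6.41 log2, with 49 lines in the upper mode (28 Q and 21 R) and 67 in the lower mode. It was chosen because mitochondrial transcripts were already known to follow it in these data, so their direction is no independent result. Here 3 of 67 members were called, where 2.39% of all tested probe sets were called. All 3 were lower in upper-mode lines, against 1.42% of all tested probe sets, and all 3 lie in the stretch. None of the 20 stretch members had a positive estimate, and their median change was -0.06, against 0.00 over all tested probe sets.

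AT2G07707 gave 6.59, 7.11 and 7.68 log2 in the 49 upper-mode lines, against 6.80, 7.38 and 8.36 in the 67 lower-mode lines. Its change was -0.31 ± 0.0610 (limma adjusted p = 0.000114, 18.5% of the variance). AT2G07751 gave 5.26, 5.80 and 6.84 in upper-mode lines, against 5.36, 6.15 and 7.13 in lower-mode lines, and changed by -0.27 ± 0.0698 (limma adjusted p = 0.0121). Both distributions overlapped over most of their range, with 43 and 46 of the 49 upper-mode lines inside the lower-mode range. AT2G07674 gave 3.30, 3.53 and 3.69 in upper-mode lines, against 3.37, 3.57 and 3.96 in lower-mode lines, with a change of -0.08 ± 0.0215 (limma adjusted p = 0.0219). With 10 principal components as covariates none of the 3 passed in limma (5 members at an unadjusted p under 0.05): AT2G07707 stayed at -0.27 and AT2G07751 at -0.22, while AT2G07674 was at -0.03.

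Among the shared probe sets 3 of 11 passed, all lower: atp9 with AT2G07671 (-0.40), atp1 with AT2G07698 (-0.31) and rps12 with AT2G07675 (-0.24). Of the 23 mitochondrial probe sets 6 passed, all lower and led by cox2 (-0.48), a cytochrome c oxidase subunit; 2 of the 23 had positive estimates, the larger for ccb382 (0.24, limma adjusted p = 0.186), as had 1 of the 11 shared sets. Of the 124 neighbours none passed (6 at an unadjusted p under 0.05 in limma). The mitochondrial score itself averaged -0.37 ± 0.896 in upper-mode lines and 0.27 ± 0.991 in lower-mode lines (SD, n = 49 and 67).

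**Figure D4:**
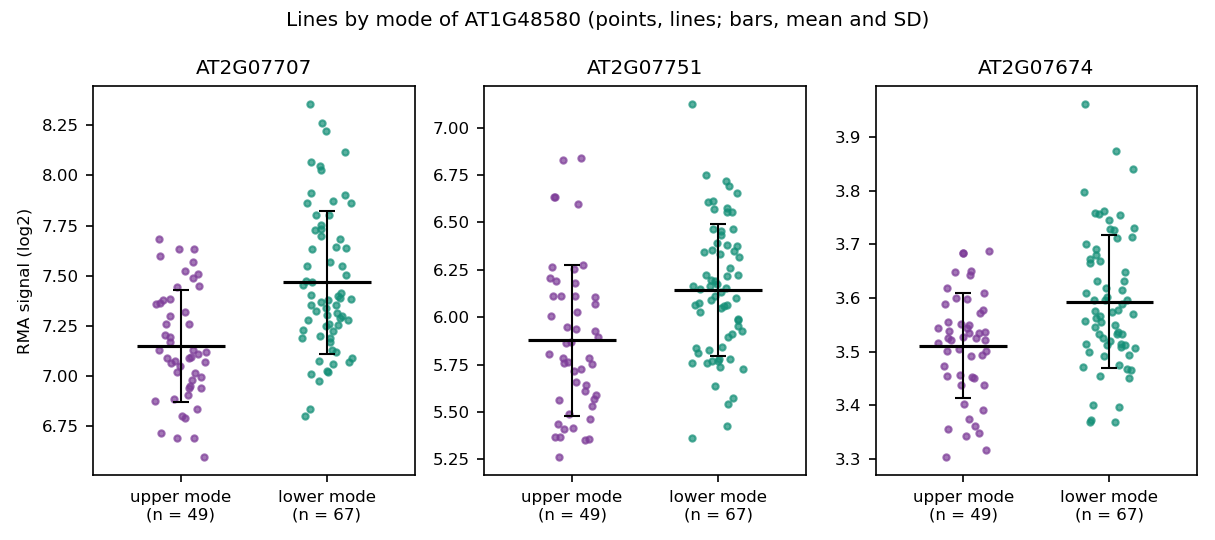
RMA signal (log2, vertical axes) of AT2G07707, AT2G07751 and AT2G07674 in lines of the upper mode (left, n = 49) and the lower mode (right, n = 67) of AT1G48580; points are lines, bars mean and SD. All 3 members average lower in the upper mode (7.15 against 7.47, 5.88 against 6.14 and 3.51 against 3.59), and the groups overlap in each panel.

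Local inheritance was examined with markers on either side of the members. No member was itself bimodal, so the nearest probe sets of single chromosome 2 genes with 2 modes were used: AT2G14460, 653 places after the last member in gene order, and AT2G03980, 457 places before the first. AT2G14460 had modes at 3.50 and 6.44 log2 with 57 lines in the upper mode (25 Q and 32 R), and AT2G03980 at 7.13 and 8.76 with 58 (33 Q and 25 R). The parental alleles behind the modes are not stated in the labels. The modes of these genes were recombined in 11.6% of the 112 lines that could be scored at both, their upper modes lying in opposite lines, so changes toward the upper mode have opposite signs at the 2 markers.

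At AT2G14460 3 of 67 members were called, where 0.853% of all tested probe sets were, and all 3 lie before the stretch. At AT2G03980 1 member was called, where 0.857% of all tested probe sets were. No stretch member passed at either marker, with 0 at an unadjusted p under 0.05 in limma at AT2G14460 and 2 at AT2G03980. For 20 members a count of 0 is close to the share over all probe sets and is no result about the stretch. The 95% intervals of all 20 stretch changes lay between -0.17 and 0.24 at AT2G14460 and between -0.25 and 0.14 at AT2G03980.

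The dim probe set of AT2G07360 was called at both markers. It gave 4.15, 4.53 and 5.05 log2 in the 57 upper-mode lines of AT2G14460, against 3.97, 4.32 and 4.72 in the 59 lower-mode lines. Its change was 0.23 ± 0.0344 (limma adjusted p = 4.08e-07, 27.7% of the variance), with 9 upper-mode lines above the lower-mode range. At AT2G03980 it gave 3.97, 4.36 and 4.88 in upper-mode lines, against 4.00, 4.51 and 5.05 in lower-mode lines, a change of -0.17 ± 0.0377 (limma adjusted p = 0.00249). The bright probe set of the same gene showed no such change: 0.00 at AT2G14460 (95% CI -0.04 to 0.04) and 0.00 at AT2G03980 (95% CI -0.04 to 0.04). The probe sets of AT2G07360 thus disagree, and a difference in transcript level cannot be told apart from a sequence difference under the probes of the dim set.

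AT2G07180 gave 5.32, 5.77 and 6.17 log2 in upper-mode lines of AT2G14460, against 5.54, 5.94 and 6.28 in lower-mode lines, a change of -0.17 ± 0.0350 (limma adjusted p = 0.000871). AT2G07000 gave 4.75, 5.14 and 5.47 in upper-mode lines, against 4.77, 5.03 and 5.34 in lower-mode lines, a change of 0.11 ± 0.0278 (limma adjusted p = 0.0218). With 10 principal components as covariates that change was 0.08 and did not pass (limma adjusted p = 0.0792). In both genes the groups overlapped over most of their range. None of the 11 probe sets shared with a mitochondrial gene passed at either marker. Of the 124 neighbours 8 were called at AT2G14460 and 10 at AT2G03980, so the same fits did make calls among single genes in the tag ranges around the members.

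**Figure D5:**
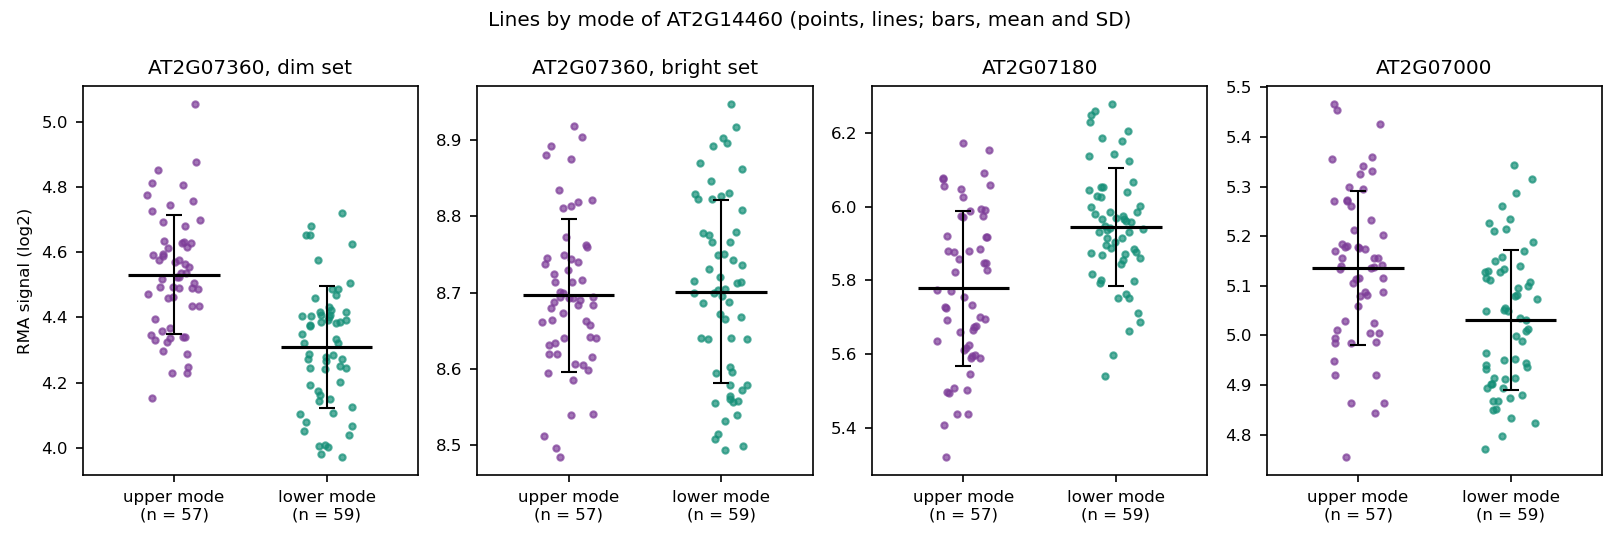
RMA signal (log2, vertical axes) of both probe sets of AT2G07360, of AT2G07180 and of AT2G07000 in lines of the upper mode (left, n = 57) and the lower mode (right, n = 59) of AT2G14460; points are lines, bars mean and SD. The dim set of AT2G07360 averages 4.53 in the upper mode against 4.31 in the lower mode, while its bright set lies at the same height in both.

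Between the line groups the count of called members was close to the share over all tested probe sets, so it is no result about the members. In Q against R lines 1 of 67 members was called, lower in Q lines, where 3.07% of all tested probe sets were called and 1.24% were called lower, and 5 members had an unadjusted limma p under 0.05. AT2G07777, the last member before the stretch, gave 4.71, 5.23 and 5.93 log2 in Q lines, against 5.08, 5.47 and 5.84 in R lines. The whole R range lay within the Q range, and the mean was 5.27 ± 0.262 (SD) in Q lines and 5.45 ± 0.184 in R lines. The difference was -0.18 ± 0.0418 (limma adjusted p = 0.0106), and with 10 principal components as covariates it was -0.10 and did not pass. As this member also rose with the mitochondrial score (0.09 log2 per SD, limma adjusted p = 0.000432), a source of its signal in the organelle cannot be told apart from a nuclear one.

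No stretch member was called between Q and R lines, and the 95% intervals of their differences lay between -0.21 and 0.24. For 20 members a count of 0 is near the 3.07% called over all tested probe sets and is no result about the stretch. Of the shared probe sets, however, 2 of 11 were called in opposite directions. The set of cox3 and AT2G07687 averaged 5.28 ± 0.359 (SD) in Q lines and 5.66 ± 0.358 in R lines, a difference of -0.38 (limma adjusted p = 0.000133). The set of atp1 and AT2G07698 averaged 7.58 ± 0.444 in Q lines and 7.23 ± 0.429 in R lines, a difference of 0.35 (limma adjusted p = 0.00934). These genes lie in the same stretch, and their differences had opposite signs.

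The final question was whether the changes at AT1G48580 and at AT2G14460 differed between Q and R lines, tested with a product term in limma. None of the 67 members passed in either test, with 3 and 0 at an unadjusted p under 0.05, and 0.0% of all tested probe sets passed. A difference of these changes between Q and R lines was therefore not detectable with 116 lines.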

How the data were processed

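Expression was measured on ATH1 arrays, 1 per line. The deposited values are log2 signals that the authors obtained by RMA, per the submitters' processing notes, with no scanner files used here. Of 22810 probe sets, 64 array controls were left out. Platform annotation gave 1 gene for 13513 probe sets, several for 503 and none for 8730; 13436 of the first were matched by Entrez ID to RefSeq TAIR10.1, which supplied class, tag and gene order. Its coordinates are not given, since the array annotation names no build.

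Models were fitted to all 22746 probe sets by lmFit and eBayes of limma (version 3.58.1, R 4.3.3), with Benjamini-Hochberg adjustment and a threshold of 0.05. Q was compared with R alone; other fits had the letter as covariate. Modes came from a mixture of 2 normal distributions with equal SD, kept where they lay at least 4 SD and 1 log2 apart, the smaller held at least 0.2 of lines and the BIC gain was at least 10; the probability of the upper mode entered each fit. Lines above 0.9 or below 0.1 were assigned a mode for the plastid genes. Of the fits, only that of Q against R was tested on simulated data. It recovered 10 of 50 changes of 0.5 SD and 48 of 50 changes of 1.0 SD.

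Members, markers and lists were chosen with earlier results of these data known. Named members are, per comparison, up to 12 with the smallest p in each direction, the 6 brightest, 4 dimmest and 8 most variable. A planned definition of the stretch by protein identity was replaced by shared probe sets, since no protein sequences were used here. Alternatives were a filter at 5 log2, array medians subtracted, the RNA quality covariate, 10 principal components, another marker coding or score, and, added after the data were seen, the other organelle score and 2 single lines left out.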

Additional observations from a re-analysis of the deposited data

How the results depend on the processing

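No called member changed sign under the alternatives run. Counts that moved by over 1.5 times are these. With 10 principal components the called members numbered 0 between Q and R (8 at an unadjusted p under 0.05 in limma), 2 at AT2G03980, 0 at AT1G48580 (5 unadjusted), 11 with the plastid score (all higher) and 17 with the mitochondrial score. Of all tested probe sets this setting called 0.145%, 1.64%, 0.831%, 2.58% and 3.38%, in the same order. The main fits had called 3.07%, 0.857%, 2.39%, 13.7% and 10.3%. At AT2G14460, 2 of 3 calls were left, where 1.32% of all tested probe sets were called. The lost calls differed in size: AT2G07707 (-0.27) and AT2G07751 (-0.22) stayed near their reported changes at AT1G48580, AT2G07674 was at -0.03, AT2G07000 at 0.08 and AT2G07777 at -0.10. The cause was not tested. A filter at 5 log2 leaves 20 members to test and gave 2 between Q and R, 0 at AT2G03980 (4 unadjusted), 9 with the plastid score and 14 with the mitochondrial score. Of all probe sets that passed the filter 6.36%, 1.07%, 18.6% and 11.0% were called, in the same order. The dim set of AT2G07360, called at AT2G03980, has a mean of 4.42 and was itself filtered out. For the organelle scores the main fits had called the same numbers, 9 and 14, among members with a mean of at least 5 log2. With array medians subtracted, 2 members were called between Q and R and 2 at AT2G03980, where 3.36% and 0.879% of all tested probe sets were. The RNA quality covariate gave 2 and 2, against 5.55% and 0.972%. Leaving out the array least like the others gave 2 at AT2G03980, against 0.844%. The joint fit with the mitochondrial score moved the plastid calls to 10 higher and 11 lower, against 10.6% and 11.3% of all tested probe sets. Over called members and alternatives, 333 results kept direction and side of the threshold and 38 kept only direction. No paired analysis was possible because the numbers in the labels name different lines. Dim signals limit 47 of 67 members.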

Other observations

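The set of AT2G07750, which the platform shares with AT1G63250 on another chromosome and which is therefore no member, followed the flanking markers more closely than any member. Its change was -0.54 log2 at AT2G14460 (58.7% of the variance, limma adjusted p = 1.69e-20) and 0.43 at AT2G03980 (36.2%, limma adjusted p = 4.37e-10). It was chosen after its values were seen. The source of its signal among the paired genes cannot be told apart.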
